A study of Gallus gallus with 18 samples.

Results

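The proteasome genes of the chicken array were taken as every gene whose symbol in the array annotation begins with PSMA, PSMB, PSMC, PSMD, PSME, PSMF or PSMG followed by a digit. This gave 37 genes of the 13009 that have a probe set with 1 symbol, and where a gene had several such probe sets the one with the highest mean over the 18 arrays was used. The rule uses no comparison between groups. By role, the genes are 7 alpha and 6 beta subunits of the 20S core, 5 ATPases and 8 other subunits of the 19S cap, 7 assembly chaperones and 3 regulators. The last gene, PSMC3IP, does not encode a subunit of the complex. In mammals it is a cofactor of meiotic recombination, and it is counted but described apart. Subunits with other symbols, and probe sets that carry several symbols, are not among the 37.

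The proteasome is the protease that degrades proteins tagged with ubiquitin. Its barrel-shaped 20S core holds the cutting sites on beta subunits, behind gates formed by the alpha subunits. The 19S cap binds the tagged protein, removes the ubiquitin and unfolds the chain with a ring of ATPases, while other regulators can occupy the ends of the core in place of the cap. In mammals and yeast the genes of core and cap tend to be transcribed together, and proteins damaged by heat are among the substrates. The roles given below are known from mammals and yeast.

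Tissue was taken from birds held at 40 ± 1 °C for 3 h and from control birds kept at 28 ± 1 °C. All birds had first been kept at the lower temperature for 8 days, and the labels name no strain. Brain (labelled cerebral cortex), liver and leg muscle gave 3 heat arrays and 3 control arrays each, from a study of 24 birds, 12 male and 12 female. The labels call the replicates biological but do not say which birds or sexes gave an array, whether RNA was pooled or whether tissues share birds, and the controls carry the earlier time label, so heat and time of sampling cannot be told apart.

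By their medians, marker genes matched the labelled tissues, but liver markers were high on 1 brain and 1 muscle array. Not every marker did: RBP4 of the hepatocyte list averaged 56.7 in liver and 65.3 in brain. GAP43 of the neuron list averaged 17.6 in brain and 24.2 in liver. Over 11 hepatocyte markers the median level on brain heat 1 reached 37.7% of the unheated liver level. Brain heat 2 and 3 stood at 1.74% and 2.79%, and the brain controls at 0.89% to 1.15%. The summed intensity of these markers was 9749 to 67000 on brain heat arrays and 22310 to 33880 on brain controls, and none of the markers was at 0. On muscle heat 3 the median was 29.5%, against 7.41% and 8.62% on the other muscle heat arrays and 1.27% to 8.17% on the muscle controls. RNA integrity was read from EEF1A, as the intensity of its 3' probe set over that of its 5' probe set, which was 1.32 to 1.396 on brain heat arrays and 1.47 to 1.56 on brain controls. In liver it was 1.27 to 1.39 on heat arrays and 1.21 to 1.43 on controls, and in muscle 1.58 to 1.89 on heat arrays and 1.53 to 2.31 on controls. The actin probe sets were less even in liver. Its 3' probe set read 11027, 9535 and 13537 on liver heat arrays and 13025, 11313 and 12480 on liver controls. The 5' actin probe set read 3980, 4401 and 8932 on these heat arrays and 9148, 6899.5 and 5646 on these controls. The part of RNA integrity in the liver changes was not tested. The heat shock gene HSPA2 rose in brain (log2 change 1.49 ± 0.07 SE, adjusted p = 0.00019) and liver (0.94 ± 0.18, adjusted p = 0.017), and had a change of 0.30 ± 0.12 in muscle (adjusted p = 0.29). HSPB9 rose by 2.93 ± 0.35 in brain (adjusted p = 0.013) and 2.59 ± 0.13 in liver (adjusted p = 9.6e-05), with 0.53 ± 0.21 in muscle (adjusted p = 0.27). The control means of HSPA2 were 4447 in brain, 2975 in liver and 9356 in muscle. Those of HSPB9 were 1750, 2756 and 10130, so both genes were already high on muscle controls.

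By the probe set used, all 37 genes were above background. Their lowest intensity on any array was 237.5 in brain, 165.4 in liver and 164.1 in muscle, above the 6.06 to 97.6 of bacterial control probe sets that measure background. All 37 also passed the filter on low values in each tissue. Changes are given on the scale of log2(intensity + 16), as heat minus control with the standard error of the fit, and a gene was called when its adjusted p from limma over 19220 probe sets was below 0.05. Intensities of different genes cannot be compared with each other. In bulk tissue fewer cells of a type and less RNA per cell cannot be told apart.

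**Figure D1:**
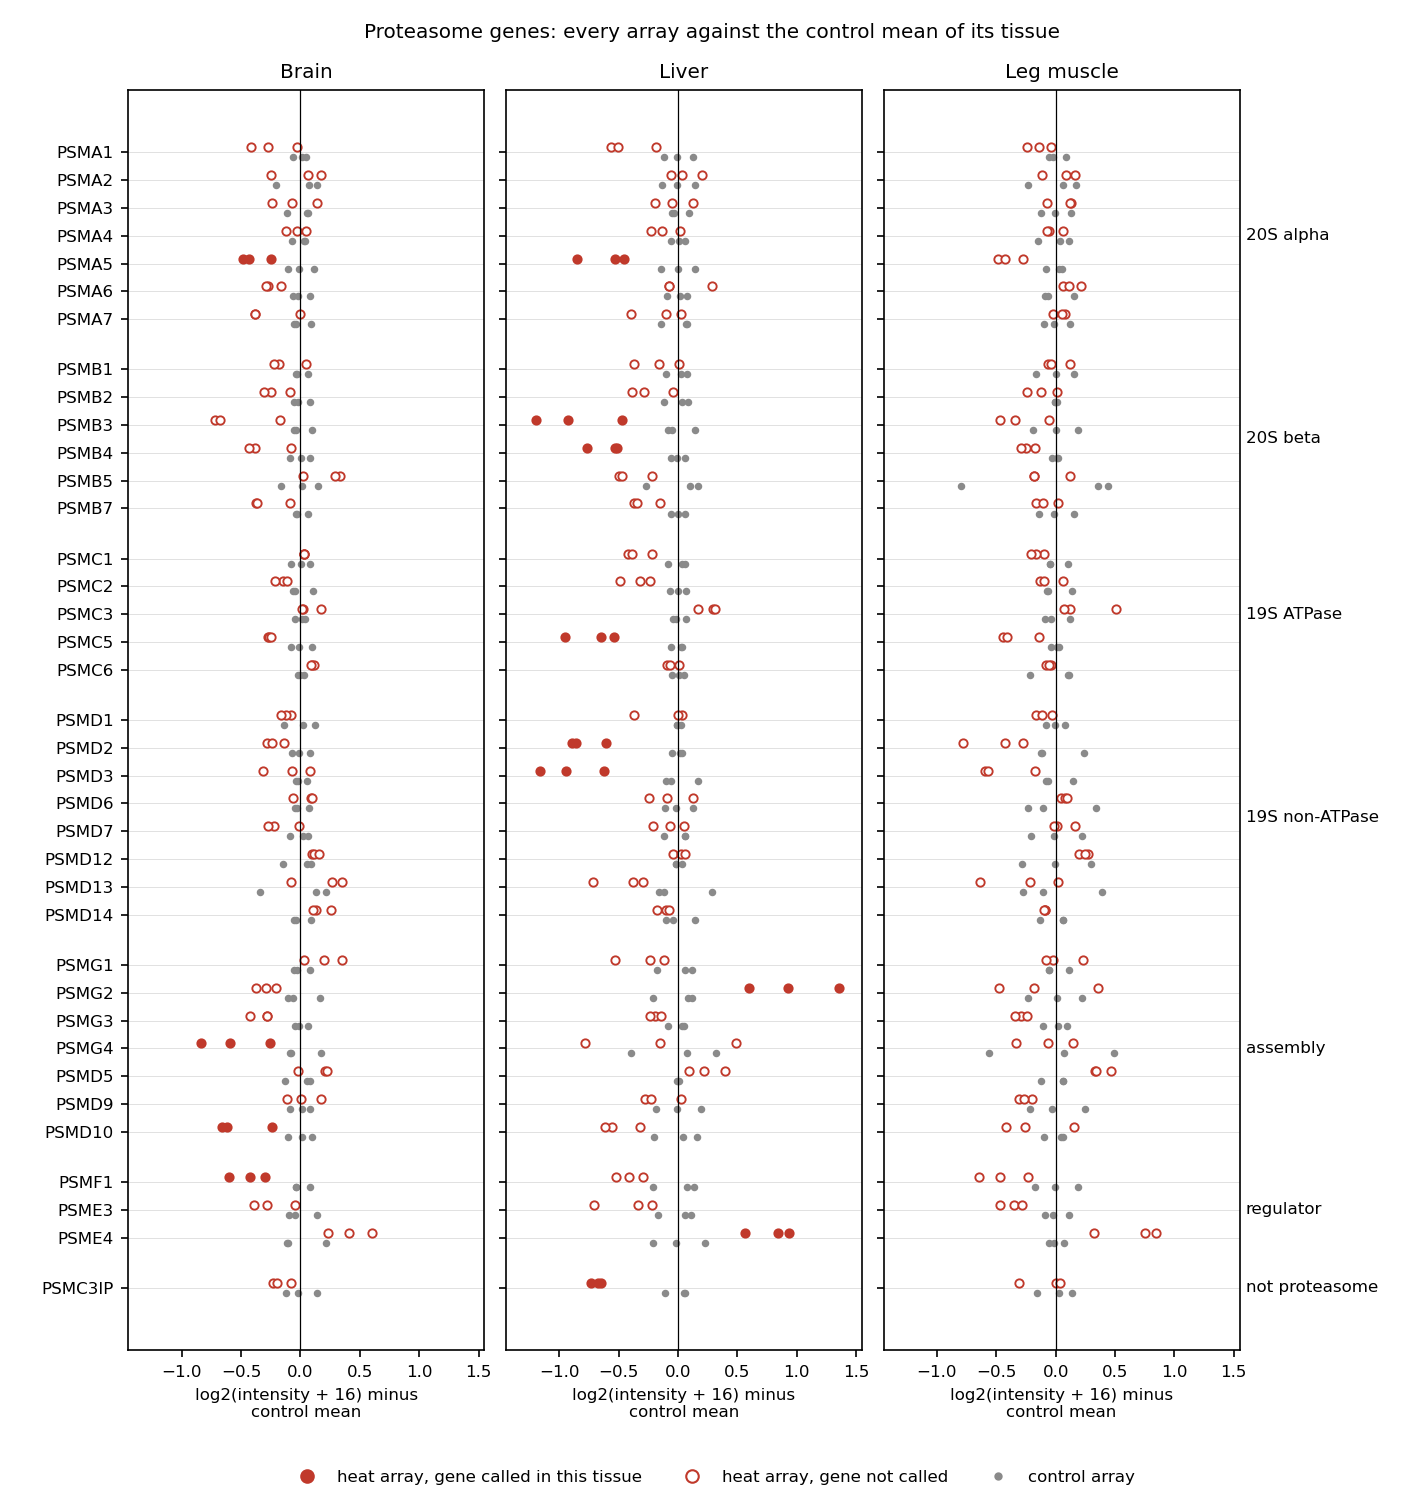
Each row is 1 of the 37 genes, grouped by role, and each panel 1 tissue; the horizontal axis is log2(intensity + 16) minus the mean of the 3 control arrays of that tissue. Red points are the 3 heat arrays, filled where the gene was called in that tissue (4 genes in brain, 9 in liver, 0 in muscle), and gray points the 3 control arrays.

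In heated liver 7 of the 37 genes fell and 2 rose. The genes that fell were the beta subunits PSMB3 and PSMB4, the alpha subunit PSMA5, the cap ATPase PSMC5, the cap subunits PSMD2 and PSMD3, and PSMC3IP. The genes that rose were the assembly chaperone PSMG2 and the regulator PSME4. Without PSMC3IP, which is not a subunit of the complex, 6 of 36 genes fell and 2 rose (22.22% called). The 9 calls are 24.32% of the 37 genes, beside 13.1% of all probe sets tested in liver. That background includes dimmer probe sets, and the share called depends on the filter. With the filter at the 75th percentile, 36 of the genes stayed, of which 8 fell and 2 rose. All probe sets then had 21.6% called, 10.6% lower and 11.1% higher. With probe sets averaged per gene, 8 fell and 3 rose, beside 20.3% of all genes, 11.7% lower and 8.59% higher. The 7 falls stand beside 6.13% of all probe sets called lower, and the 2 rises beside 6.94% called higher. The median change of the 37 genes was -0.19, against -0.03 over all probe sets tested. With the deposited scaling of liver, in place of quantile normalization, 6 fell and 2 rose, and 69.4% in place of 53.1% of all calls in liver were rises. The median change of the 37 genes was then -0.08, against 0.02 over all probe sets.

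PSMD3, a subunit of the cap's lid, read 625, 731 and 915 on liver heat arrays and 1594, 1358 and 1319.6 on liver controls. The heat arrays lay below every control. It fell by 0.91 ± 0.17 on the log2 scale (adjusted p = 0.015). PSMD2, the large scaffold subunit of the cap on which ubiquitin receptors and shuttles dock, read 631, 648 and 775 on heat arrays against 1213, 1202 and 1147 on controls. All 3 heat arrays were again below the controls (-0.79 ± 0.13, adjusted p = 0.013). PSMC5, an ATPase of the unfolding ring, read 1365, 1684 and 1823 on heat arrays and 2719, 2698 and 2538 on controls. The groups did not overlap (-0.71 ± 0.14, adjusted p = 0.018).

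Of the core, PSMB3, a beta subunit without a cutting site, read 1652, 2733 and 1993 on liver heat arrays and 3580.4, 4198 and 3670.3 on controls. Heat array 2 stood highest of the heated group but below all controls (-0.87 ± 0.18, adjusted p = 0.021). PSMB4, also without a cutting site, read 3389, 4049 and 4001 on heat arrays and 5574, 6043 and 5772 on controls, with the heat arrays lower and close together (-0.61 ± 0.11, adjusted p = 0.015). PSMA5, a subunit of the alpha ring, read 1970.1, 2469 and 2598 on heat arrays and 3231, 3934 and 3563 on controls. These groups did not overlap either (-0.61 ± 0.14, adjusted p = 0.029). PSMC3IP read 306, 293 and 310.4 on heat arrays against 517, 459 and 516 on controls, a change of -0.69 ± 0.13 (adjusted p = 0.015). The groups were well apart.

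PSMG2, which pairs with PSMG1 to guide assembly of the alpha ring, read 729.7, 1249 and 924 on liver heat arrays and 509, 521 and 412 on liver controls. Every heat array was above every control, by 1.94-fold on average (log2 change 0.96 ± 0.20, adjusted p = 0.022). Its partner PSMG1 read 427, 572 and 525 on heat arrays and 648, 677 and 549 on controls, which overlap (-0.29 ± 0.16, adjusted p = 0.23; named after its values were seen). PSME4, known as PA200, which caps the core in place of the 19S cap, read 1469, 1138 and 1375 on liver heat arrays and 895, 753 and 657 on controls. The groups did not overlap and the change was 0.78 ± 0.16 (adjusted p = 0.021), a 1.72-fold rise.

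The liver count rests on single arrays. It was 0 without control 3, 3 without control 2 and 2 without heat 1, where 2.6%, 3.15% and 3.61% of all probe sets were called. Without any other liver array it was 6 to 10, beside 5.61% to 12.4% of all probe sets. Markers of neurons, 8 genes, were at 1.00% to 2.23% of the unheated brain level on liver heat arrays and 0.95% to 1.05% on liver controls, with sums of 388 to 807 and 278 to 296. Skeletal muscle markers, 9 genes, were at 0.57% to 1.98% of the muscle level on liver heat arrays and 0.48% to 0.72% on controls. The part of these transcripts in the liver changes was not tested.

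In heated brain 4 proteasome genes fell and 0 rose. They were PSMA5 of the alpha ring, the assembly chaperones PSMD10 and PSMG4, and the regulator PSMF1. The 4 calls are 10.81% of the genes, beside 12.3% of all probe sets tested in brain, so the share called was close to the background. By direction, 5.74% of all probe sets were called lower and 6.55% higher. The median change of the 37 genes was -0.16, against 0.00 over all probe sets, and 25 of the 37 had a value below 0. With array medians set equal, 6 fell and 0 rose, and 37.3% in place of 53.3% of all calls in brain were rises.

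PSMF1, known as PI31, which binds the core and inhibits it in vitro, read 1042, 917 and 1138 on brain heat arrays and 1363, 1367 and 1480.5 on brain controls. All heat arrays lay below the controls (-0.44 ± 0.11, adjusted p = 0.039). PSMD10, known as gankyrin, a chaperone of the ATPase ring, read 1228, 939 and 909 on heat arrays against 1461, 1346 and 1547 on controls. Heat array 1 was the closest to the controls (-0.51 ± 0.13, adjusted p = 0.044). PSMA5 read 2185, 1850.1 and 1918 on heat arrays and 2572, 2414 and 2802 on controls, without overlap (-0.39 ± 0.10, adjusted p = 0.044). PSMG4, a small partner of PSMG3 in assembly of the alpha ring, read 1217, 963 and 808 on heat arrays and 1377, 1368 and 1647 on controls, also without overlap and just under the threshold (-0.56 ± 0.16, adjusted p = 0.0498). A second PSMG4 probe set had a change of -0.81 (adjusted p = 0.032), and another, whose groups overlapped, had 0.04 (adjusted p = 0.89).

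PSMB3 read 3178, 2167 and 2233 on brain heat arrays and 3485, 3446 and 3823 on controls. Its change, -0.52 ± 0.15, was the second largest decrease and just missed the threshold (adjusted p = 0.051). The largest positive values were those of PSME4 (0.41 ± 0.14, adjusted p = 0.079), of PSMB5, the subunit that cuts after hydrophobic residues (0.22 ± 0.12, adjusted p = 0.25), and of PSMG1 (0.19 ± 0.12, adjusted p = 0.29). PSMB5 had -0.06 when its probe sets were averaged.

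Without brain heat 1, the array with liver transcripts, 12 of the 37 proteasome genes were called lower and 0 higher, beside 12.6% of all probe sets lower and 10.4% higher in the same fit. No call was left without brain heat 2 or without any 1 of the brain controls, where 0.0572% to 4.25% of all probe sets were called, and 1 was left without brain heat 3 (4.57%). Skeletal muscle markers were at 1.03% to 1.68% of the muscle level on brain heat arrays and 0.39% to 0.58% on brain controls, with sums of 1786 to 4709 and 484 to 542. The part of these transcripts and of the EEF1A ratio in the brain values was not tested.

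In heated leg muscle no proteasome gene was called by limma, where 0.0052% of all probe sets tested were called. At an unadjusted p below 0.05, 2 genes were higher and 8 lower, beside 7.58% of all probe sets higher and 8.55% lower, together 16.1%. A fit over all 18 arrays called 2 higher and 2 lower, beside 4.04% of all probe sets higher and 5.01% lower. The median change was -0.09, against 0.01 over all probe sets. PSME4 had the largest positive value, with 1349, 1443 and 1002 on muscle heat arrays and 788, 835 and 767 on muscle controls. The groups did not overlap (0.64 ± 0.17, adjusted p = 0.15). PSMD5, a chaperone of the ATPase ring, had 0.38 ± 0.13 (adjusted p = 0.23) and the lid subunit PSMD12 0.24 ± 0.16 (adjusted p = 0.52).

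On the other side, PSMD2 read 600.0, 772 and 859 on muscle heat arrays and 955, 958 and 1234 on controls, without overlap (-0.49 ± 0.18, adjusted p = 0.26). PSMF1 had -0.45 ± 0.17 and PSMD3 -0.45 ± 0.17 (adjusted p = 0.25 for each). Neuron markers were at 0.99% to 4.27% of the brain level on muscle heat arrays and 0.74% to 0.99% on muscle controls. The part of these and of the liver transcripts on muscle heat 3 was not tested.

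The tissues were next read together through the mean heat effect of brain, liver and muscle in 1 fit of 18 arrays, an analysis added after seeing the data. Because tissues may share birds, the 18 arrays may not be independent. By this measure 16 of the 37 genes were lower in heated birds and 2 higher. The 18 calls are 48.6% of the genes, beside 30.1% of 24546 probe sets. Those probe sets passed the filter in at least 1 tissue and include dimmer ones, while all 37 genes passed it in each tissue. The 16 lower calls stand beside 14.5% of probe sets called lower, and the 2 higher calls beside 15.6% called higher. The median over the 37 genes was -0.13, against 0.00 over all probe sets. The count stayed between 15 and 20 under every alternative run, and with the deposited scaling in all tissues it was 13 lower and 3 higher. Without brain heat 1 and muscle heat 3, the arrays with liver transcripts, it was 15 lower and 3 higher. The share of all probe sets called was not taken in these alternative fits, so their counts cannot be set against a background.

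By role, 4 of 6 beta subunits were lower (PSMB2, PSMB3, PSMB4 and PSMB7), as were 3 of 5 cap ATPases (PSMC1, PSMC2 and PSMC5). The counts were 2 of 7 for alpha subunits (PSMA1 and PSMA5) and 2 of 8 for the other cap subunits (PSMD2 and PSMD3). Of the assembly chaperones, PSMD10 and PSMG3 were lower and PSMD5 higher, with 4 not called. The 3 regulators were all called, PSME3 and PSMF1 lower and PSME4 higher, and PSMC3IP was lower. PSMG3 was at -0.04 with its probe sets averaged. Its second probe set read 26.8 to 58.2, within the range of the background probe sets, and failed the filter in each tissue. The genes listed here by role were named after their values were seen.

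**Figure D2:**
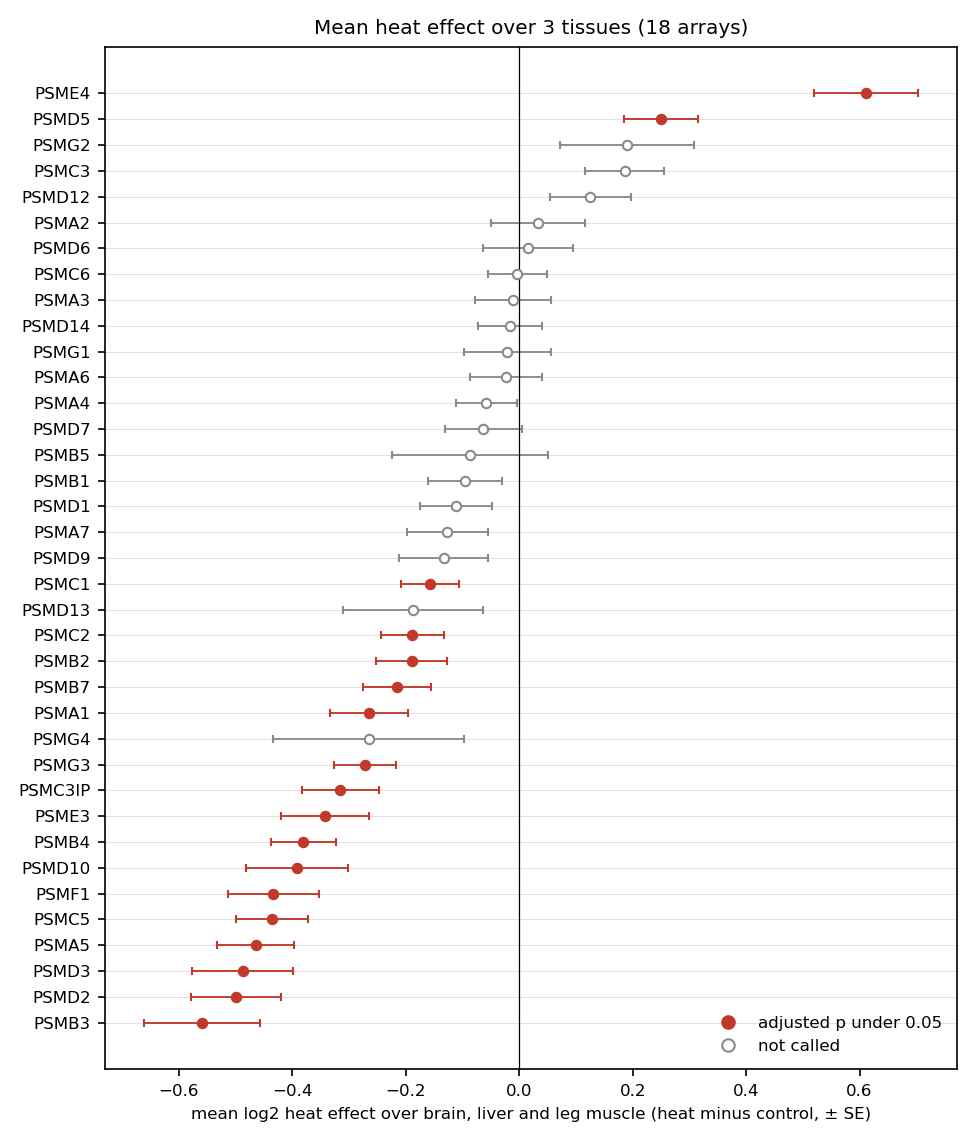
Mean log2 heat effect over brain, liver and leg muscle for each of the 37 genes, heat minus control, with bars of 1 standard error from the fit of 18 arrays. Filled red points are the 18 genes called, with PSME4 (0.61) at the top and PSMB3 (-0.56) at the bottom; open gray points were not called.

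The largest decreases in the mean were those of PSMB3 (-0.56 ± 0.10, adjusted p = 0.00098), PSMD2 (-0.50 ± 0.08, adjusted p = 0.00038), PSMD3 (-0.49 ± 0.09, adjusted p = 0.00095) and PSMA5 (-0.46 ± 0.07, adjusted p = 0.00022). PSMC5 (-0.44 ± 0.06) and PSMF1 (-0.43 ± 0.08) followed. On the other side stood PSME4, with 0.61 ± 0.09 (adjusted p = 0.00028), and PSMD5, with 0.25 ± 0.06 (adjusted p = 0.0085). PSME4 ranged from 0.58 to 0.66 when single arrays were left out and was called each time.

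A stricter reading asks for heat arrays outside the range of the controls in each tissue. PSME4 lay above the controls in all 3 tissues, 1 of 37 genes, beside 3.18% of the 14525 probe sets tested in each tissue. The genes below the controls in all 3 tissues were PSMA5, PSMC5, PSMD2, PSMF1 and PSMG3, 13.5% of the 37 beside 3.85% of probe sets. In brain PSME4 read 890.5, 774 and 685 on heat arrays and 539.6, 675 and 537 on controls, so that the highest control came close to the lowest heat array. In muscle PSMA5 read 3937, 3387 and 3531 on heat arrays and 4505, 4938 and 4855 on controls, with all heat arrays below the controls (-0.40 ± 0.11, adjusted p = 0.16). Values below 0 in each of the 3 tissues were found for 18 of the 37 genes (48.6%, beside 28.7% of probe sets) and values above 0 for 4 (10.8%, beside 26.6%).

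**Figure D3:**
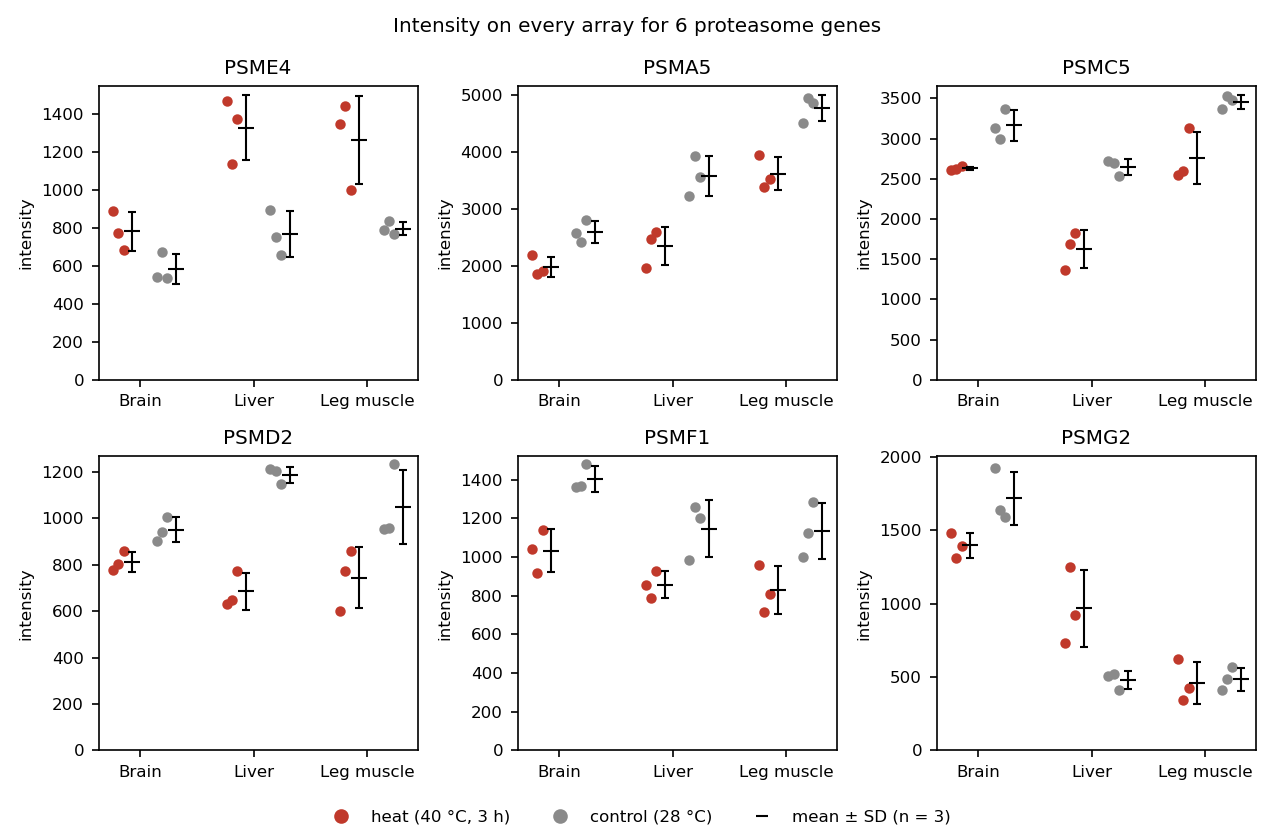
Intensity on every array for 6 proteasome genes, with heat arrays in red left of control arrays in gray for each tissue, and the mean ± SD of 3 arrays in black; vertical axes start at 0 and differ between genes. PSME4 is higher and PSMA5, PSMC5, PSMD2 and PSMF1 lower on heat arrays of all tissues, while PSMG2 is higher on heat arrays in liver and lower in brain.

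The size of the heat change differed between tissues for 1 gene. In brain PSMG2 read 1483, 1313 and 1396 on heat arrays and 1922, 1639.7 and 1588 on controls. Its brain change, -0.29 ± 0.11, was opposite in sign to the liver rise given above but was not called (adjusted p = 0.10). The difference, brain minus liver, was -1.25 ± 0.29 (adjusted p = 0.039), in a comparison where 1.7% of 23128 probe sets were called and 0.783% were called with a negative difference. In muscle PSMG2 read 620.0, 343 and 423 on heat arrays and 409, 485 and 565 on controls, which overlap, and muscle minus liver was -1.06 ± 0.29 (adjusted p = 0.10). The brain and liver call was lost in 10 of 18 fits that left out an array (adjusted p 0.056 to 0.11). Each of these left out a brain or liver array. Fits without a muscle array, which cannot change the difference itself, all kept the call. Neuron markers on liver heat arrays 1, 2 and 3 were at 1.71%, 1.00% and 2.23% of the unheated brain level, with sums of 637, 388 and 807. Liver controls had 0.95% to 1.05% and sums of 278 to 296. Oligodendrocyte and astrocyte markers, 4 genes, were at 6.52%, 2.79% and 3.44% on these heat arrays and 2.17% to 2.35% on the controls. The part of brain transcripts in the PSMG2 values was not tested. No proteasome gene differed in heat change between muscle and liver or between brain and muscle, where 0.968% and 0.341% of probe sets were called.

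Core and cap were compared by the mean change per array. It was taken over the 13 core genes and over 16 cap genes, in which the chaperones PSMD5, PSMD9 and PSMD10 are included by their symbols. No test was made of these means. In liver the core was at -0.44, -0.13 and -0.30 on heat arrays 1, 2 and 3, and at -0.08 to 0.09 on controls. The cap was at -0.29, -0.30 and -0.19 on the same heat arrays and at -0.04 to 0.02 on controls. These liver levels were taken after quantile normalization. With the deposited scaling the median change of the 37 genes in liver was -0.08 in place of -0.19. Core minus cap was -0.15, 0.17 and -0.12 on liver heat arrays 1, 2 and 3, against -0.10 to 0.08 on controls. Each heat array lay outside the range of the controls, with signs that differ, and their mean was -0.03 ± 0.17 (SD, n = 3). In muscle the core averaged -0.08 and the cap -0.09 on heat arrays, with core minus cap at 0.01 ± 0.07.

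In brain the heat arrays differed among themselves. On heat arrays 2 and 3 the core was at -0.24 and -0.32 while the cap was at -0.04 on both. On heat array 1, with its liver transcripts, the core was at -0.01 and the cap at -0.05. Erythrocyte markers, 2 genes, summed to 19830, 9804 and 5933 on brain heat arrays 1, 2 and 3, and 13740 to 20300 on brain controls. Leukocyte markers, 5 genes, summed to 8328, 6437 and 7166 on these heat arrays and 7299 to 9824 on controls. The part of liver and blood transcripts in these brain values was not tested. Core minus cap was 0.04, -0.20 and -0.28 on brain heat arrays 1, 2 and 3, against -0.03 to 0.04 on controls. The mean was -0.15 ± 0.17 (SD, n = 3), and -0.24 without heat array 1. In brain 12 of 13 core genes had a value below 0, against 7 of 16 cap genes. The counts were 11 of 13 against 13 of 16 in liver, and 8 of 13 against 11 of 16 in muscle. Genes on the same arrays are not independent.

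**Figure D4:**
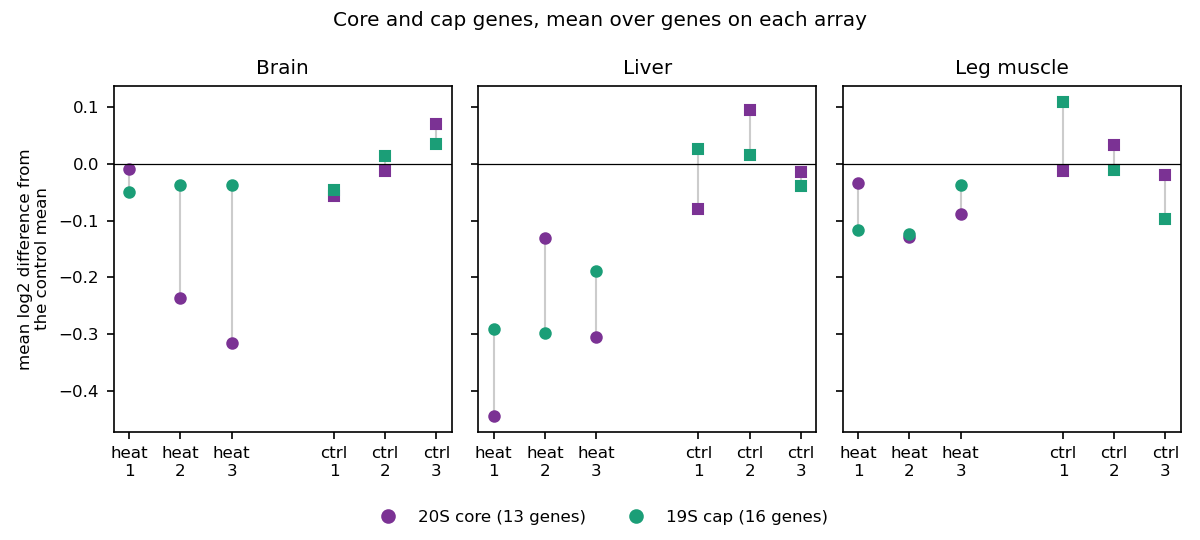
Mean log2 difference from the control mean of the tissue, over 13 core genes (purple) and 16 cap genes (green), for each of the 3 heat arrays (circles) and 3 control arrays (squares) of each tissue. In brain the core lies below the cap on heat arrays 2 and 3 (-0.24 and -0.32 against -0.04) and not on heat array 1; in liver both lie below all controls.

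Of the genes with the highest mean over the arrays in each role, PSMG4 passed the test in brain, as given above, and the other 5 passed it in no single tissue. For the alpha subunit PSMA4 the brain, liver and muscle changes were -0.04, -0.12 and -0.02. For the beta subunit PSMB1 they were, in the same order, -0.12, -0.17 and 0.00. The ATPase PSMC6 had 0.10, -0.05 and -0.06. PSMD7, the partner of the deubiquitinase PSMD14, had -0.17, -0.08 and 0.05. PSME3, known as PA28 gamma, a ring that caps the core in the nucleus, had -0.24, -0.42 and -0.37.

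Probe sets of 1 gene did not always agree. A second PSMB5 probe set fell in liver by 1.12 (adjusted p = 0.0048), where the main one had -0.40 (adjusted p = 0.12). A second PSMA6 probe set rose in liver by 1.05 (adjusted p = 0.012), where the main one had 0.04. A second PSMB7 probe set rose in brain by 0.43 (adjusted p = 0.039), against -0.28 for the main one. Second probe sets of PSMD2 and PSME3 fell in liver by 0.62 (adjusted p = 0.029) and 0.56 (adjusted p = 0.046). In all, 5 calls of other probe sets had the sign of the main one and 1 had the opposite sign. For PSMA6 the main value was near 0 (adjusted p = 0.84), so its sign says little. Of these other probe sets 11 were tested in brain, 13 in liver and 14 in muscle. Over all probe sets 12.3%, 13.1% and 0.0052% were called in these tissues. The 2 other PSME4 probe sets were higher on all heat arrays in liver and muscle, with changes of 0.43 to 0.52, and were not called.

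Without heat, proteasome genes varied little between tissues by the probe set used. For 33 of the 37 the highest tissue mean was under 2-fold above the lowest (89.2%, beside 46.1% of probe sets), and 32 with array medians set equal. The 46.1% includes dimmer probe sets, and other probe sets of a gene could differ more. For PSMG4, 1 had -1.32 in brain over liver and -1.96 in muscle over liver (adjusted p = 0.00021 and 1.2e-05 by limma). Another PSMG4 probe set had 0.75 and 0.05 (adjusted p = 0.00081 and 0.77). In brain over liver 11 genes were higher and 8 lower (51.4% called, beside 68.1% of probe sets, 36.9% higher and 31.2% lower). In muscle over liver 6 were higher and 7 lower (35.1%, beside 58.4%, with 28.3% higher and 30% lower), and in brain over muscle 11 higher and 4 lower (40.5%, beside 65.8%, with 36.6% higher and 29.2% lower). The split by direction depends on the scaling between tissues. With array medians set equal, which moved the median of all probe sets in brain over liver to -0.15, against 0.05 as deposited, 6 genes were higher and 12 lower in brain over liver, and 5 higher and 8 lower in brain over muscle. With quantile scaling 12 were higher and 2 lower in muscle over liver, beside 5918 higher and 5428 lower of all probe sets. Of all calls in muscle over liver 52.2% were then higher, against 48.5% as deposited. Of all calls in brain over liver 54.1% were higher as deposited, 44.6% with quantile scaling and 42.9% with medians set equal, and in brain over muscle 55.6%, 42.2% and 45.3%.

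PSMC3, an ATPase of the cap, averaged 2005 ± 61.9 in unheated brain, 208 ± 17.5 in muscle and 169 ± 5.08 in liver (SD, n = 3 arrays each). Brain was 10.9-fold above liver (log2 3.45 ± 0.11, adjusted p = 3.0e-10) and 9.04-fold above muscle. The other PSMC3 probe set ran the other way, with 131, 137 and 139.5 in brain against 162, 236 and 222 in liver and 212, 238 and 253 in muscle. The 2 probe sets of the gene thus differ in direction. PSMG2 averaged 1717 ± 180 in brain, 486 ± 78.1 in muscle and 464 ± 57.4 in liver, with brain 3.62-fold above liver and 3.47-fold above muscle, while muscle over liver did not pass the test (adjusted p = 0.75). The third largest in brain over liver was PSMD14, which removes ubiquitin from substrates (0.74 ± 0.11), and in brain over muscle PSMD10 (0.68 ± 0.13).

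Among the genes lower in unheated brain, PSMD13, a lid subunit, averaged 310 ± 63.3 in brain, 844 ± 215 in muscle and 782 ± 127 in liver. The difference was -1.30 ± 0.21 from liver and -1.39 ± 0.21 from muscle. A second PSMD13 probe set had 0.17 in brain over liver (adjusted p = 0.32) and -0.14 in brain over muscle (adjusted p = 0.41). Another was also lower in brain, with -0.45 in brain over liver (adjusted p = 0.013) and -3.34 in brain over muscle (adjusted p = 2.4e-09). It read only 45.9, 50.1 and 53.6 on brain controls, within the range of the background probe sets. Its pattern differed from the main one, with 2.9 in muscle over liver (adjusted p = 1.2e-08) against 0.09. PSMA5 averaged 2596 ± 195 in brain, 4766 ± 230 in muscle and 3366 ± 286 in liver, and each tissue differed from the others. PSMC3IP and PSMG1 completed the largest decreases in brain over liver (-0.73 and -0.61), and PSME4 that in brain over muscle (-0.45). In muscle over liver the largest differences were PSMD7 (0.60), PSMA5 (0.50) and PSMD12 (0.48) on the higher side and PSMC3IP (-1.15), PSMD3 (-0.52) and PSME3 (-0.49) on the lower. With probe sets averaged, PSMA5 in brain over muscle was 0.20 and PSMD7 in muscle over liver -0.01. The second probe sets of both genes were below the filter in the unheated comparison.

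**Figure D5:**
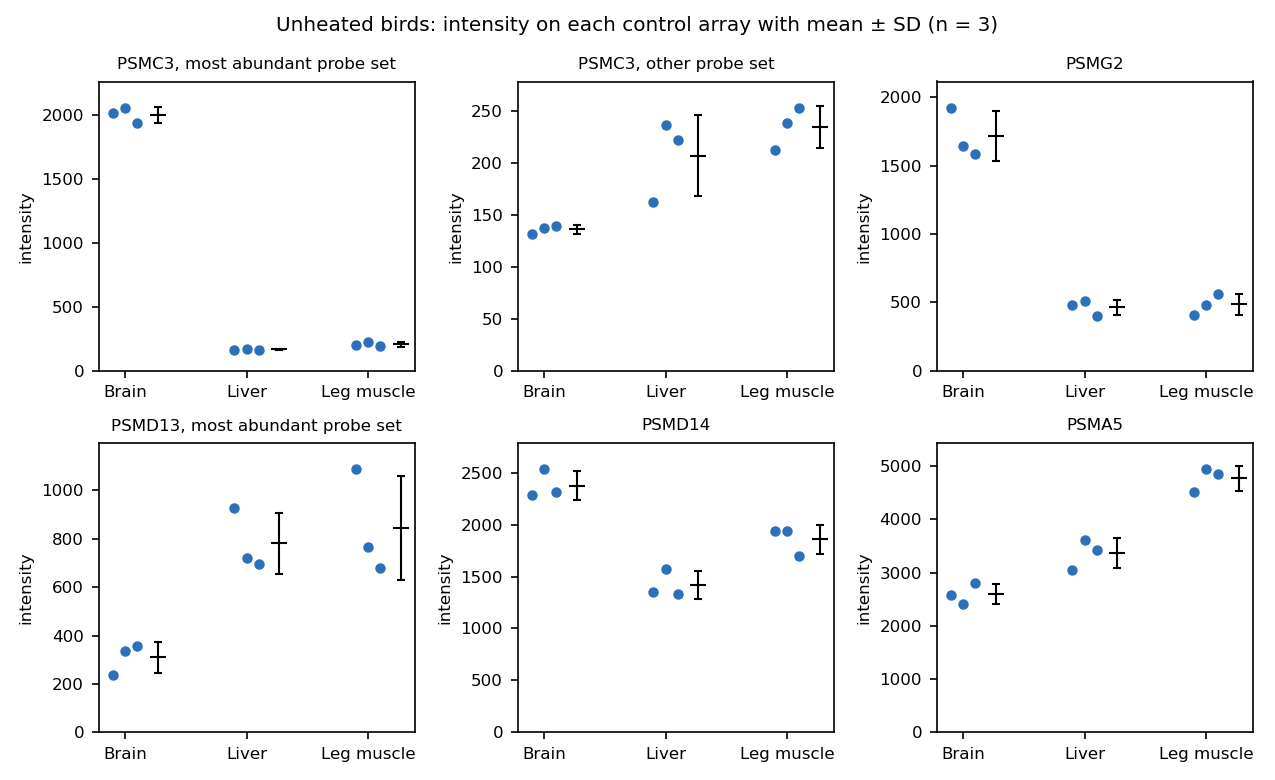
Intensity on the 3 control arrays of each tissue (blue points) with mean ± SD in black, for 5 proteasome genes and a second probe set of PSMC3; vertical axes start at 0. The main PSMC3 probe set stands near 2005 in brain, 169 in liver and 208 in muscle, while the other one is lower in brain.

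Few of the factors that work with the proteasome passed the test. Of 22 symbols listed for associated factors, some of them other names of 1 gene, 19 matched a probe set and 17 were tested in each tissue. In brain 1 fell and 0 rose (5.882% called, beside 12.3%), in liver 1 fell and 1 rose (11.76%, beside 13.1%), and in muscle none was called. PITHD1, a protein found on proteasomes, read 608, 439.9 and 442 on brain heat arrays and 736, 768 and 962 on brain controls (-0.72 ± 0.16, adjusted p = 0.032). In liver it read 489, 536 and 451 on heat arrays and 751, 958 and 1059 on controls (-0.87 ± 0.16, adjusted p = 0.015). SHFM1, the small lid subunit also called SEM1, rose in liver (0.64 ± 0.14, adjusted p = 0.026), where it read 159.9, 174 and 162 on heat arrays and 79.0, 116 and 109 on controls.

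NFE2L1, the transcription factor that raises proteasome genes in mammalian cells when the protease is inhibited, read 2857, 1526 and 1328 on brain heat arrays and 3341, 3182 and 3455 on brain controls. All heat arrays were lower, with heat array 1 again nearest to the controls (-0.88 ± 0.24, adjusted p = 0.051). Its change was -0.16 in liver and 0.00 in muscle. NFE2L2, a related factor of the oxidative stress response, had 0.12 in brain, 0.19 in liver and -0.06 in muscle. None of these was called, nor was POMP, which helps the core mature, with -0.13, 0.01 and 0.14. Of 32 symbols listed for ubiquitin, shuttle factors and the p97 unfoldase, 21 were matched and tested. The conjugating enzyme UBE2D1 rose in liver (0.61 ± 0.14, adjusted p = 0.025), the 1 call in liver (4.762%, beside 13.1% of all probe sets), with 0 in brain (beside 12.3%) and 0 in muscle (beside 0.0052%).

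Across the 37 genes the heat changes of muscle and liver had a Pearson correlation of 0.74, those of brain and muscle 0.57 and those of brain and liver 0.40. Over all probe sets the values were 0.55, 0.52 and 0.48. These are descriptions across genes, which are not independent, with 3 arrays behind each group.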

How the data were processed

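RNA of 18 samples was hybridised to Affymetrix chicken arrays, 3 arrays in each of 6 groups. The values are the authors' deposited intensity per probe set, on a linear scale. GCOS 1.4 is named in the submitters' processing notes, with no role. How probes were summarised, corrected for background or scaled is not given in the sources used. The table holds 38439 probe sets without controls, of which 27168 carry 1 symbol, 177 several and 11094 none.

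Trimmed means (2% off each end) differed by a factor of 1.066 between the brain arrays, 1.044 in muscle and 1.119 in liver. Because liver passed the 10% limit, it was quantile normalized, and the deposited scaling was kept elsewhere. Probe sets with a mean log2 value below the tissue's median probe set were left out. Heat was compared with control per tissue by limma 3.58.1 (R 4.3.3) on log2(intensity + 16), with an intensity trend, two-sided, adjusted by Benjamini-Hochberg over 19220 probe sets at a threshold of 0.05. Differences between tissues in heat effect were contrasts over 18 arrays, and unheated tissues were compared over the 9 control arrays with the deposited scaling. The procedure was tested on simulated data.

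Members and lists were chosen with earlier results of these data known. Genes named are those called, the 3 largest values each way in a tissue with under 6 calls, the gene with the highest mean of each role, the 3 largest unheated differences each way, the pathway genes called with NFE2L1, NFE2L2 and POMP, and HSPA2 and HSPB9, and others are marked. Alternatives covered scaling, pseudocount, filter, trend, array weights, arrays in the fit, probe sets and each array left out. Deviations of heat and control arrays of the same number had correlations of -0.452 to 0.370. With 3 arrays a group these cannot decide whether the numbers pair the arrays, and the labels name no pairing. Replicates are labelled biological, but not as single birds or pools, so p-values measure the spread between these arrays, whose number limits the precision.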

Additional observations from a re-analysis of the deposited data

Results flagged for a closer look

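The heat change of PSMG2 differed between brain and liver by a test of the difference itself. Brain minus liver was -1.25 on the log2 scale (adjusted p = 0.039 by limma). All 3 heat arrays lay below the controls in brain and all 3 above them in liver. Such separation was found for 18.2% of all probe sets in brain (lower) and 17.7% in liver (higher). The brain change by itself was not called (-0.29, adjusted p = 0.10 by limma). The difference ranged over -1.53 to -1.05 when single arrays were left out, with adjusted p of 0.023 to 0.11. The call was kept in 8 of 18 such fits. These include every fit without a muscle array, where the difference itself cannot change. Of the fits without a brain or liver array, only those without brain heat 1 or liver heat 1 kept the call. The cause of the difference was not tested.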

How the results depend on the processing

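Counts of proteasome genes called depended on the setting in each heat comparison, and the causes were not tested. In brain, 4 became 1 with all 18 arrays in the fit, beside 7.71% of all probe sets called. It became 19 with array weights (2 higher and 17 lower, beside 36%). With no filter it was 0 (beside 5.18%), with no intensity trend 2 (beside 11.9%) and with the replicate block 0 (beside 2.63%). With single arrays left out it was 0 to 12, beside 0.0572% to 23.1%. In liver, 9 became 15 with all 18 arrays and 14 with array weights (beside 19.8% and 26% of all probe sets). Over single arrays left out the liver count was 0 to 10, beside 2.6% to 12.4%. In muscle, 0 became 4 with all 18 arrays, beside 9.05% of all probe sets. For brain minus liver, 1 became 2 with array weights, 2 with probe sets averaged, 0 with no filter, 0 with the replicate block and 2 without brain heat 1 and muscle heat 3, and was 0 to 2 with single arrays left out. For muscle minus liver, 0 became 1 with array weights and was 0 to 2 with single arrays left out. For these differences between tissues the share of all probe sets called was not taken under the other settings. The replicate block, on numbers not known to pair the arrays, gave 10 calls in liver (beside 16.1% of all probe sets) and 0 in muscle (beside 0%). In the mean heat effect it gave 18. With single arrays left out, core minus cap in brain ranged over -0.24 to -0.08. In liver its range was -0.14 to 0.02, and for muscle it was -0.05 to 0.05. With probe sets averaged, 3 values turned sign, namely PSMA5 in unheated brain over muscle (0.20), PSMB5 in heated brain (-0.063) and PSMD7 in unheated muscle over liver (-0.0061). The second probe sets of PSMA5 and PSMD7 were below the filter in the unheated comparison. With 3 arrays a group, single arrays decide which genes pass in a tissue.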
